A study of Mus musculus with 4 samples.

Results

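Cytosolic ribosomal protein genes are described here in hair follicle stem cells of mice with a conditional knockout of Tbx1, a T-box transcription factor gene, and of wild type mice. Members were the genes whose only symbol in the platform annotation is Rpl or Rps followed by a digit, without the Rps6 kinase genes, symbols ending in -ps and symbols holding the letters rt. The rule found 46 of 12384 genes that had a symbol of their own, and 43 of these were among the 8031 genes bright enough to be tested. Of the 43, 20 encode proteins of the large subunit, 19 encode proteins of the small subunit, 3 are paralogues with a second symbol letter (Rpl7l1, Rpl22l1, Rps27l), and 1, Rps4l, is annotated in the RefSeq gene table as a transcribed pseudogene. The other 3 members, Rpl3l, Rpl39l and the annotated pseudogene Rps15a-ps6, which the wording of the rule lets through, lay below the limit for dim genes at mean log2 intensities of 4.61, 4.55 and 3.48. Rps27a and Rpl32, often used as reference genes, are not members, since no probe set carried either symbol alone.

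The cells were sorted by flow cytometry on YFP, integrin α6 and CD34 from back skin of female mice of CD1/C57BL/6 background at about postnatal day 60, 48 h after depilation. The groups were Tbx1 conditional knockout (cKO), with 2 arrays, and wild type (WT), with 2 arrays, and each set number joins 1 cKO and 1 WT array. All 4 samples carry the same depilation text, yet another label calls set 1 quiescent and set 2 activated, so the sets are named here by number. The Cre driver, the deleted part of Tbx1 and whether animals were pooled are not named in the labels. Nothing says that the arrays came from separate animals, so p-values rest only on the spread between these arrays. For each gene that spread is in part pooled over all genes tested.

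A ribosome is built from ribosomal RNA and a large set of ribosomal proteins, most of them present in a single copy per particle, which is why cells need the proteins of both subunits in matched amounts. In mammals the mRNAs of these proteins typically begin with a run of pyrimidines (C or T in the DNA), the TOP motif. This motif lets mTOR signalling, through the RNA-binding protein Larp1, set how much of them is translated. The amount of mRNA alone therefore does not show how much is translated. Hair follicle stem cells at rest are known to make protein slowly and to raise synthesis when the follicle regrows, and in mice mutations of Rps19 or Rps20 darken the skin through p53 in keratinocytes.

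Annotated start sites of the members were searched for such runs. RefSeq promoter windows of the assembly GRCm38.p6, from 250 bases before to 50 bases after the annotated start of transcription, were found for 39 of the 46 members. Printed below are 25 bases on each side of the start for 9 genes, chosen to show long, short and absent pyrimidine runs and the 3 paralogues, with the longest run of C and T in the printed stretch in capitals. Each stretch reads 5′ to 3′ on the strand of the gene.
Rpl7a, chr2:26910782-26910831, plus strand: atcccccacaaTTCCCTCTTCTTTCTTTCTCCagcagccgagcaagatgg
Rpl35, chr2:39005107-39005156, minus strand: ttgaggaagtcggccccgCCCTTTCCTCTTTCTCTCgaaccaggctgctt
Rps10, chr17:27635220-27635269, minus strand: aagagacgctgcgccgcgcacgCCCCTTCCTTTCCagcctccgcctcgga
Rps18, chr17:33955641-33955690, minus strand: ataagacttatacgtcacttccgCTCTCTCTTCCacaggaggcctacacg
Rps6, chr4:86857343-86857392, minus strand: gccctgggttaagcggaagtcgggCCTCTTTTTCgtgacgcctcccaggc
Rpl41, chr10:128549144-128549193, minus strand: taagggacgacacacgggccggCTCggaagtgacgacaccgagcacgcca
Rpl22l1, chr3:28805483-28805532, plus strand: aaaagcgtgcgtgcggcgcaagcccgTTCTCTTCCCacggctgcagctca
Rps27l, chr9:66946061-66946110, plus strand: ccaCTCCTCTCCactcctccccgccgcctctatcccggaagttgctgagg
Rpl7l1, chr17:46782632-46782681, minus strand: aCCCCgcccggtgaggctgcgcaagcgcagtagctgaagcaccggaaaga
The run spans 21 bases at Rpl7a, 18 at Rpl35, 13 at Rps10, 11 at Rps18 and 10 at Rps6, and no more than 3 at Rpl41 in the printed stretch. A run of at least 8 C or T bases within 40 bases of the start was present in 28 of the 34 large and small subunit members with a window (82.4%). The background was 2056 of 6542 tested genes with a window (31.4%) and 8805 of all 27025 genes with a window (32.6%). In these counts a gene has a feature if any of its annotated starts has it. The other 6 of the 34 had none. This count takes runs on either side of the start, some of them wholly before it, as at Rps25. The run printed for the paralogue Rps27l, which is not in this count, also lies before the start. A run of that length that held the first transcribed base was present in 11 of the 34 (32.4%), against 331 of the tested genes (5.06%) and 4.59% of all genes with a window. Runs of A or G of the same length, searched as a check, were present in 7 of the 34 members (20.6%), against 34.0% of the tested genes. Mitochondrial ribosomal protein genes, whose products serve the ribosome inside mitochondria, had the pyrimidine run in 20 of 65 genes with a window (30.8%). Among the paralogues, Rpl22l1 and Rps27l had runs of 10 and 9 bases, and the longest run of Rpl7l1 within 40 bases of the start was 7 bases. RefSeq lists 2 starts for Rps27l, and 1 of them is shown.

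The 300-base windows were also searched on both strands for short motifs. CCGGAAG, the core bound by ETS family factors such as Gabpa, was found in 17 of the 34 subunit members with a window. The background was 1420 of 6542 tested genes (21.7%) and 9.93% of all genes with a window. AAGATGG, the core bound by Yy1, was found in 6 of 34 (17.6%), against 8.84% of tested genes and 7.28% of all genes with a window. TATAAA, the TATA box, was found in 4 of 34 (11.8%), against 8.71% of tested genes and 15.7% of all genes with a window. A match is a stretch of letters and does not show binding.

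All 4 arrays gave near-equal overall signal. The median probe set lay between log2 6.36 and 6.38, and the highest between 14.61 and 14.64. Tbx1 read 9.54 and 8.88 on the cKO arrays, against 10.53 and 10.37 on the WT arrays. Most of the bulge markers (12 of 13, among them Krt15 and Cd34) passed the limit for dim genes. Of these 12, 4 were higher in cKO in both sets (background 35.8%), Krt15 and Cd34 among them. Lhx2 alone was lower in both (background 27.9%), and 7 went in opposite directions. The summed intensity of the 13 was 71732 and 73521 in cKO, against 61148 and 63981 in WT. The sorts also differed in markers of other cells. Summed over 10 endothelial markers, linear intensity was 193 and 205 in cKO, against 2513 and 2436 in WT, and for each of the 10 the cKO values lay wholly below the WT values. Of the suprabasal markers, 4 of 6 were tested, and the summed intensity of the 6 was 22227 and 24946 in cKO, against 20311 and 6931 in WT. The part of these cells in the ribosomal protein signal was not tested.

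Most ribosomal protein probe sets were among the brightest features on the arrays. Probe sets of the members made up 8.11% and 8.14% of the summed linear intensity on the cKO arrays, against 8.05% and 8.10% on the WT arrays. Together with 101 probe sets that list a ribosomal protein symbol beside others, and so cannot be named, the share was 17.99% and 18.03% on the cKO arrays, against 17.77% and 17.85% on the WT arrays. Of the 100 brightest probe sets, 35 belonged to members and 77 to either kind. Normalisation holds the top of the distribution alike on each array, so these shares are largely set by it and do not measure ribosomal protein mRNA content. In 31 members, all of them subunit genes, the chosen probe set, the one with the highest mean, averaged at least log2 13.52, the level of Rpl27, and the next member, Rpl22l1, averaged 13.15. These 31 are called the bright members below. Probe sets differ in how well they bind their target, so signal does not rank the genes by their mRNA. The arrays received cRNA from the same amount of total RNA and were normalised to each other, so values are shares of the measured RNA, and fewer cells of a type and less RNA per cell cannot be told apart.

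**Figure D1:**
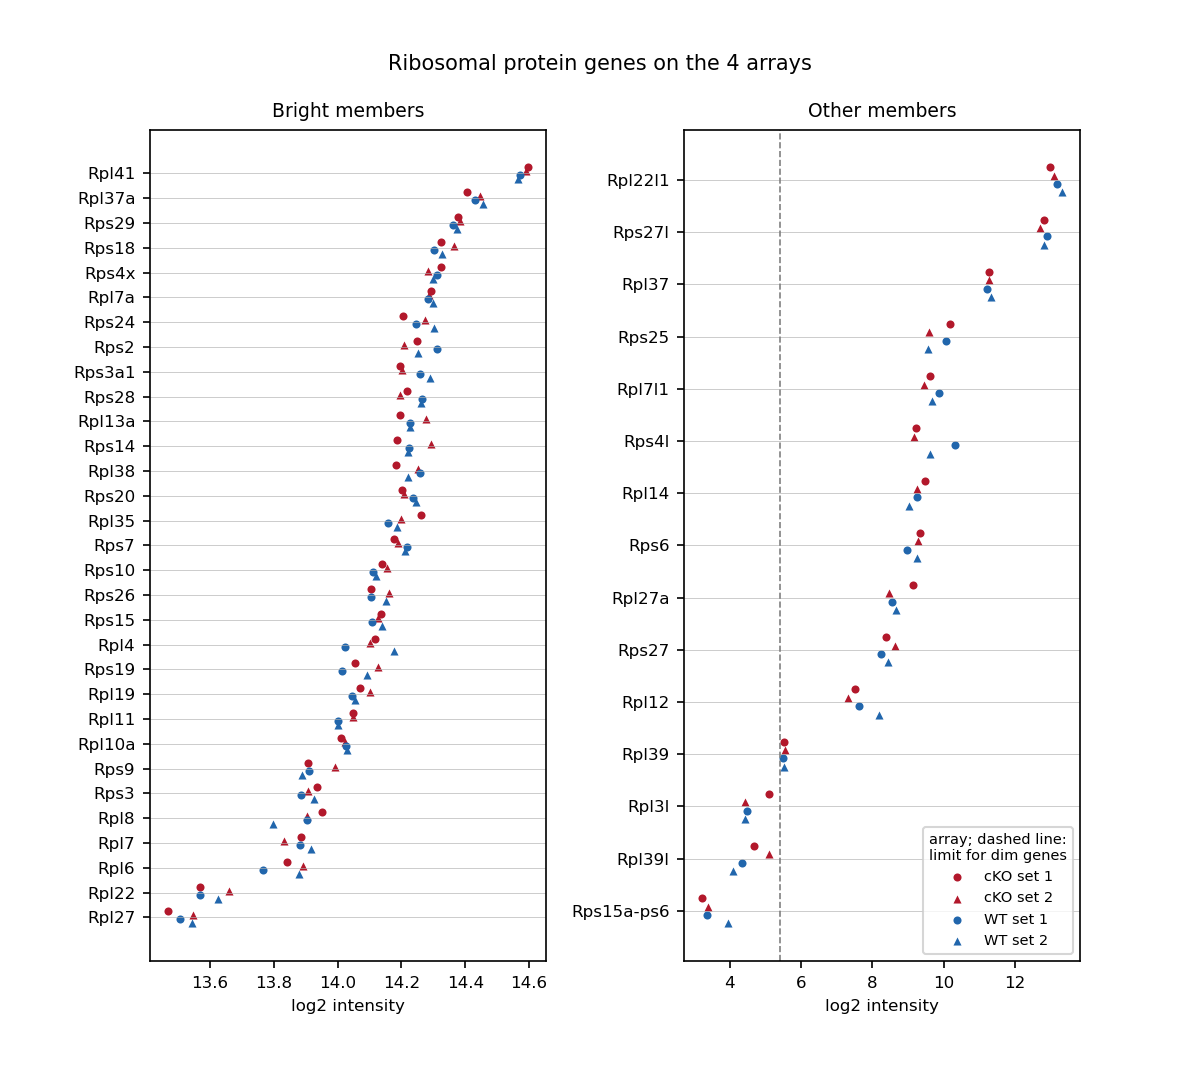
Log2 intensity (horizontal axes) of the 46 members on each array, by the chosen probe set, with the 31 bright members on the left and the others on the right, on different scales. Red marks are cKO and blue marks WT, circles set 1 and triangles set 2. Members on the left differ by at most 0.15 over the 4 arrays, and the dashed line is the limit for dim genes at 5.398.

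In the bright members the 4 arrays lay close together. Over the 31 members, the gap between the highest and the lowest array had a median of 0.07 on the log2 scale and ran from 0.02 at Rpl7a to 0.15 at Rpl8. Over all 8031 tested genes the median gap was 0.47. Over the 27 other genes that averaged at least the level of Rpl27, it was 0.20, with a range of 0.04 to 0.55. As a set these 27 were dimmer, with median levels of 13.81 to 13.90 over the 4 arrays, against 14.16 to 14.19 in the bright members. The highest probe set of an array lay at 14.61 to 14.64. Whether nearness to the top of the scale narrows the gap was not tested. The brightest member, Rpl41, differed by exactly 0 in both comparisons after a second quantile normalisation. Rpl13a, a common reference gene in quantitative PCR, read 14.19 and 14.28 in cKO, against 14.23 and 14.23 in WT. Rpl41, which encodes the smallest ribosomal protein, read 14.60 and 14.59 in cKO, against 14.57 and 14.57 in WT.

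The first comparison asked whether loss of Tbx1 went with a difference in ribosomal protein mRNA. No member passed limma's test with Benjamini-Hochberg adjustment at 0.05 (0 of 43), against 7 of all 8031 genes (0.0872%). Of these 7, 4 are endothelial markers (Aqp1, Fabp4, Plvap and Selp), all lower in cKO. At an unadjusted p under 0.05, 1 member, the annotated pseudogene Rps4l, passed, against 1137 of all genes (14.2%). With the set as a block, 0 members passed the adjusted test, against 83 genes (1.03%). The median difference of the members, cKO minus WT, was 0.01 in set 1 and 0.002 in set 2, beside 0.02 and 0.05 over all genes tested. Irrespective of direction, the median size of the difference was 0.04 in members and 0.20 over all genes. It was 0.03 in the 31 bright members and 0.20 in the 12 tested members below them.

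Most members, chiefly the bright ones, were near 0 in both sets. In 31 of 43 (72.1%) the cKO array lay within 0.1 of the WT array in set 1 and in set 2, which held for 527 of all genes (6.56%). Among the bright members it held for 28 of 31 (90.3%), and among the 12 tested members below them for 3 (25%). Among the 27 other genes above the same lower limit as the bright members it held for 12 (44.4%). Those 27 are not free of ribosomal protein genes. They include Fau, Rplp0, Rplp2 and Rpsa, which lie outside the symbol rule, and Eef1a1, Eef1b2, Naca and Tpt1, of the TOP class. Each of these named genes was within 0.1 in both sets, whereas Pabpc1, also of the TOP class, was not. No member differed 1.5-fold in the same direction in both sets (0 of 43), against 244 genes higher (3.04%) and 132 lower (1.64%). The 95% interval of the difference lay wholly within 1.5-fold for 34 of 43 members, against 33.3% of all genes. That held for 3 of the 12 tested members below the bright ones (25%), and for all 31 of the bright members. For those 31 the difference ran from -0.07 at Rps3a1 to 0.08 at Rpl8, with moderated standard errors of 0.15 to 0.16. As these are nearly alike for all 31, the count of intervals within 1.5-fold restates that the differences are small. It is not separate evidence that the genotypes are equal. These intervals hold for the chosen probe set only. That of Rpl41 ran from -0.35 to 0.40, whereas the mean of its probe sets differed by -0.44 and its weakest probe set above the limit by -1.11.

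Directions were mixed. Of 43 members, 15 were higher in cKO in both sets (background 35.8%), 13 were lower in both (background 27.9%) and 15 went in opposite directions. Both cKO arrays lay above both WT arrays in 7 members (background 26.7%) and below both in 10 (background 19.9%). The large subunit had 8 members higher and 3 lower in both sets, with a median difference of 0.01, and the small subunit had 7 higher and 6 lower, also with a median of 0.01.

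**Figure D2:**
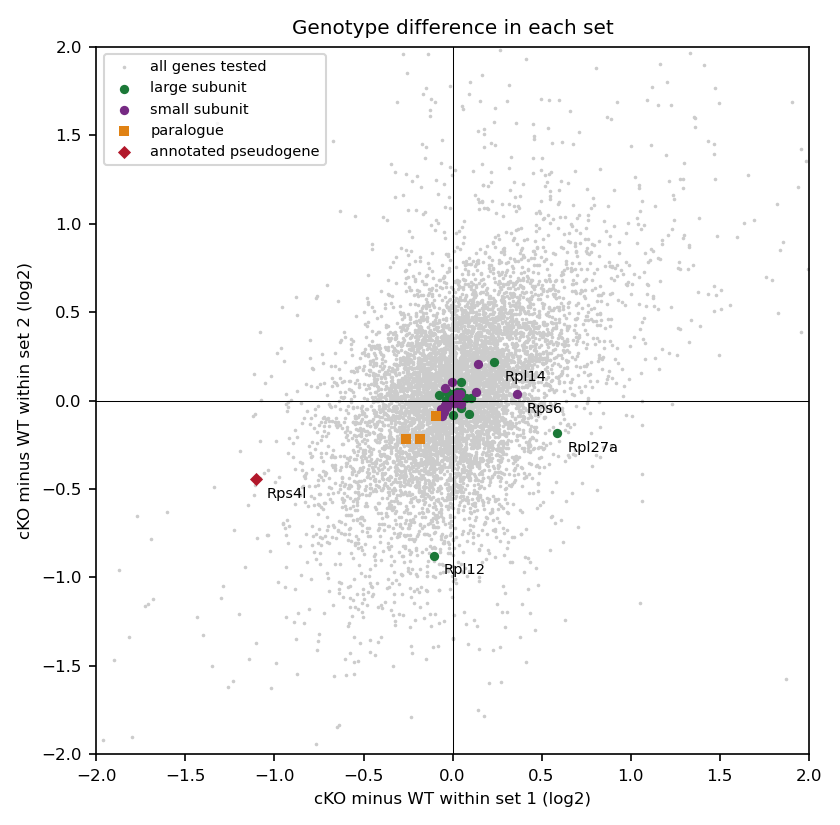
Difference in log2 intensity, cKO minus WT, within set 1 (horizontal axis) and within set 2 (vertical axis), for all 8031 genes tested in grey and the 43 members by class. Genes beyond the axes are not drawn. Most members lie within 0.1 of the origin, and Rps4l, Rpl12 and Rpl27a lie away from it.

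Among large subunit members, Rpl14 had the highest mean difference. It read 9.48 and 9.25 in cKO, against 9.25 and 9.03 in WT, a difference of 0.22 ± 0.18 (SE, n = 2 each, limma adjusted p = 0.618), and the groups touched, with cKO set 2 level with WT set 1. Rpl11, a component of the particle with ribosomal 5S RNA that can bind Mdm2 and so stabilise p53, read 14.05 on both cKO arrays, which lay 0.05 above the WT array in each set. The groups did not overlap, and the standard deviation within a group was 0.0003 in cKO and 0.0002 in WT. The difference was below limma's moderated standard error of 0.15 (limma adjusted p = 0.918), which comes mostly from the spread of all genes. Rpl8, which lies near the catalytic centre of the large subunit, read 13.95 and 13.90 in cKO, against 13.90 and 13.80 in WT, and differed by 0.08 ± 0.16 (SE, n = 2 each, limma adjusted p = 0.859). Rpl19 and Rpl39 were higher in both sets with mean differences of 0.04 each, and Rpl39 did so at 5.51 and 5.56 in cKO, against 5.48 and 5.52 in WT, just above the limit for dim genes.

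Rpl38, whose mutation in mice changes the patterning of the axial skeleton, read 14.18 and 14.25 in cKO, against 14.26 and 14.22 in WT, so its groups overlapped. Rpl22, an RNA-binding protein of the large subunit, read 13.57 and 13.66 in cKO, against 13.57 and 13.63 in WT, also overlapping. Rpl12, part of the base of the ribosomal stalk, was lower in cKO in both sets. It read 7.51 and 7.31 in cKO, against 7.62 and 8.19 in WT, a difference of -0.49 ± 0.23 (SE, n = 2 each, limma adjusted p = 0.413), which came to -0.11 in set 1 and -0.88 in set 2. The groups did not overlap, and WT set 2 stood apart from the other 3 arrays.

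Among small subunit members, Rps6, the substrate of the S6 kinases downstream of mTOR, read 9.35 and 9.29 in cKO, against 8.99 and 9.25 in WT. The cKO arrays lay above both WT arrays, by 0.36 in set 1 and 0.04 in set 2, and the mean difference was 0.20 ± 0.17 (SE, n = 2 each, limma adjusted p = 0.642). It was 0.05 with the mean of its probe sets and 0.07 without WT set 1. Rps27, which carries a zinc finger, read 8.39 and 8.65 in cKO, against 8.25 and 8.44 in WT, and the groups overlapped. Its difference was 0.17 ± 0.18 (SE, n = 2 each, limma adjusted p = 0.706). Rps10 and Rps19 were higher in both sets by 0.03 and 0.04 in the mean, and Rps25 by 0.09. In humans Rps19 is the gene most often mutated in Diamond-Blackfan anaemia.

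Small subunit members that were lower in cKO in both sets lay close to WT. Rps3a1 read 14.20 and 14.20 in cKO, against 14.26 and 14.29 in WT, with no overlap and a difference of -0.07 ± 0.15 (SE, n = 2 each, limma adjusted p = 0.861). Rps28 differed by -0.06, Rps2 by -0.05, and Rps20 and Rps24 by -0.03 each. A second probe set of Rps28 had the opposite sign, with values of 14.22 and 14.24 in cKO, against 14.19 and 14.22 in WT.

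The 3 paralogues were lower in cKO in both sets (3 of 3, background 27.9%), and none passed the test. Rpl22l1, the paralogue of Rpl22, read 13.00 and 13.11 in cKO, against 13.18 and 13.32 in WT. The groups did not overlap and the difference was -0.20 ± 0.16 (SE, n = 2 each, limma adjusted p = 0.621), beside 0.02 for Rpl22 itself. Rpl7l1, the paralogue of Rpl7, read 9.62 and 9.46 in cKO, against 9.88 and 9.68 in WT, again without overlap, and differed by -0.24 ± 0.17 (SE, n = 2 each, limma adjusted p = 0.568), beside -0.04 for Rpl7. Its second probe set differed by -0.08 in set 1 and -0.23 in set 2. Rps27l, a paralogue of Rps27 and a known p53 target, read 12.81 and 12.72 in cKO, against 12.90 and 12.81 in WT. It differed by -0.09 in both sets, and 1 of its further probe sets was 0.01 higher in cKO in set 1. Both Rpl3l, which is known from striated muscle, and Rpl39l, known from testis, stayed below the limit for dim genes.

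With all 4 arrays, the pseudogene Rps4l had the largest mean difference of any member in either direction. Rps4l read 9.23 and 9.16 in cKO, against 10.33 and 9.61 in WT, a difference of -0.77 ± 0.26 (SE, 2 arrays each, limma adjusted p = 0.308). Both cKO arrays lay below both WT arrays, by 1.10 in set 1 and 0.45 in set 2, which is 0.585-fold in the mean. Without WT set 1 the difference of Rps4l was -0.41, and that of Rpl12 was -0.78, and without WT set 2 they were -1.14 and -0.21. Rps4x, the X-linked gene of the small subunit protein, read 14.32 and 14.28 in cKO, against 14.31 and 14.30 in WT.

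The second comparison set the arrays of set 2 against those of set 1 and used the same 4 arrays. No member passed limma's test with Benjamini-Hochberg adjustment at 0.05 (0 of 43), and no gene did (0 of 8031, 0%). At an unadjusted p under 0.05, 1 member, Rps25, passed, against 230 of all genes (2.86%). With genotype as a block, 0 members and 1 gene (0.0125%) passed the adjusted test. The median difference of the members, set 2 minus set 1, was 0.006 in cKO and 0.015 in WT, beside -0.03 and -0.09 over all genes tested. In 29 of 43 members (67.4%) both genotypes were within 0.1, which held for 690 of all genes (8.59%). Among the bright members it held for 27 of 31 (87.1%), and among the other genes above the same lower limit for 14 of 27 (51.9%). Among the 12 tested members below the bright ones it held for 2 (16.7%). The 95% interval, again from moderated standard errors, lay wholly within 1.5-fold for 34 of 43 members (background 23.9%). That held for all 31 bright members and for 3 of the 12 below them (25%).

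Of the 43 members, 19 were higher in set 2 in both genotypes (background 19.8%), 10 were lower in both (background 35.8%), and none was 1.5-fold apart in both genotypes in either direction (background 0.573% higher and 0.809% lower). Of the 31 bright members, 15 were higher and 5 lower, with differences between -0.08 and 0.08. The sign of so small a shift depended on scaling, since the median over members was 0.01 as deposited and -0.004 with each array centred on its median. Rps27 was the member that lay furthest above set 1 in both genotypes, at 8.65 and 8.44 in set 2 (cKO and WT), against 8.39 and 8.25 in set 1. The difference was 0.22 (limma adjusted p = 0.999), and both set 2 arrays lay above both set 1 arrays. Rps19, Rpl22 and Rps24 were higher by 0.07, 0.07 and 0.06, and Rpl6 by 0.08.

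Rps25, a small subunit protein used by some viral internal ribosome entry sites, had the largest mean difference between sets among the members. It read 9.60 and 9.55 in set 2 (cKO and WT), against 10.19 and 10.06 in set 1. Both set 2 arrays lay below both set 1 arrays, by 0.59 in cKO and 0.51 in WT, and the mean difference was -0.55 ± 0.17 (SE, 2 arrays each, limma adjusted p = 0.999, and adjusted p = 0.473 with genotype as a block). Rpl14 read 9.25 and 9.03 in set 2 (cKO and WT), against 9.48 and 9.25 in set 1, a difference of -0.23 with cKO set 2 level with WT set 1. Rpl7l1 and Rps27l were lower in set 2 by 0.18 and 0.09 in the mean.

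Further probe sets of the same genes differed by their level. The 31 bright members had 46 further probe sets. The 32 of these at log2 8 or more differed between genotypes by -0.13 to 0.27 in set 1 and by -0.11 to 0.10 in set 2. The 14 under log2 8 ranged from -0.86 to 0.59 in set 1 and from -1.97 to 0.22 in set 2. In 6 of the 14 (42.9%) the WT set 2 array was more than 0.3 above every other array, which held for 0 of the 32 brighter ones and for 1206 of the 12995 probe sets in the range of level of the 14 (9.28%).

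The weak probe set furthest from its chosen one in set 2 was that of Rps24, a small subunit protein with several splice forms. A weak probe set read 6.94 and 6.40 in cKO, against 6.79 and 8.37 in WT, while the chosen one read 14.21 and 14.27 in cKO, against 14.25 and 14.30 in WT. At Rpl41, 1 weak probe set read 6.28 and 6.62 in cKO, against 7.14 and 7.98 in WT, and at Rps9 1 read 5.42 and 5.28 in cKO, against 5.46 and 6.32 in WT. The same WT array was high in nuclear RNAs. Malat1 read 9.80 and 10.56 in cKO, against 10.03 and 12.35 in WT, and Neat1 read 8.51 and 7.93 in cKO, against 7.46 and 9.08 in WT. Whether these RNAs and the weak probe sets share a source was not tested.

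**Figure D3:**
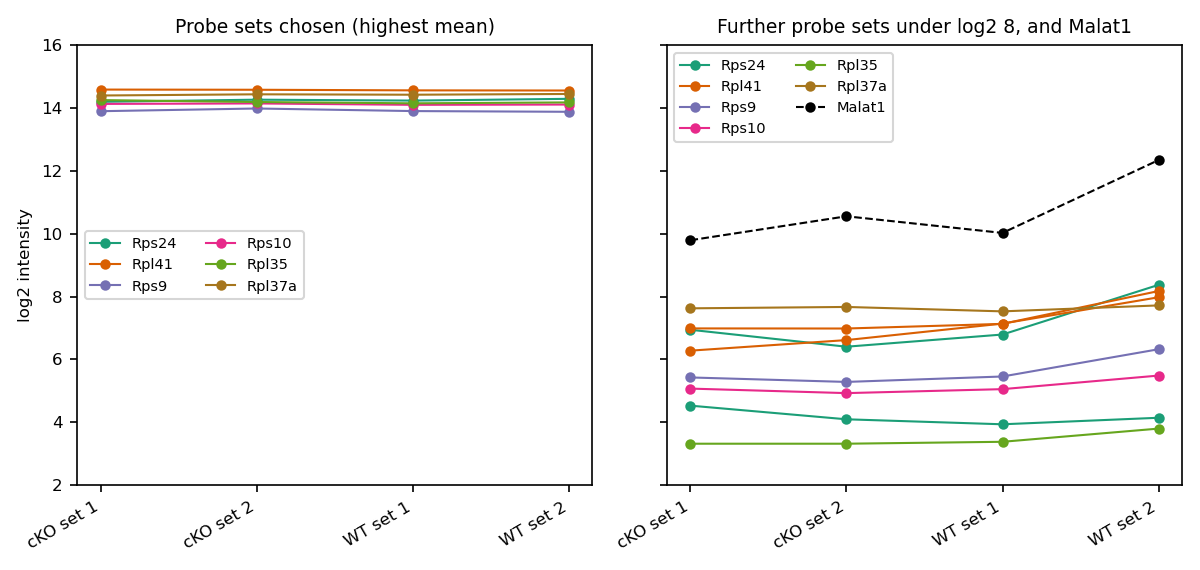
Log2 intensity (vertical axis) on each array for the chosen probe sets of 6 members (left) and for their further probe sets under log2 8, with the nuclear RNA Malat1 dashed (right). Each line joins the values of 1 probe set. The chosen probe sets are level over the arrays, and several weak ones are highest on WT set 2. The genes drawn include every bright member with a weak probe set more than 0.3 higher on WT set 2 than on any other array. The weak probe sets of Rps18, Rps20 and Rps4x, which lack that margin, are not drawn.

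The probe sets that list a ribosomal protein symbol beside others were also near 0. Of 101, 93 lay above the limit for dim genes, with a median level of 13.99. Their median difference, cKO minus WT, was 0.006 in set 1 and 0.005 in set 2, 63 of the 93 were within 0.1 in both sets, and 0 were 1.5-fold apart in both. Ribosomal proteins outside the symbol rule were measured in 4 genes, Fau, Rplp0, Rplp2 and Rpsa, of which the P proteins form the stalk that recruits elongation factors. All 4 were within 0.1 in both sets. Rplp0 read 14.27 and 14.29 in cKO, against 14.29 and 14.20 in WT, and Rpsa read 14.37 and 14.34 in cKO, against 14.30 and 14.28 in WT.

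Other mRNAs of the TOP class were measured in 17 genes, and 0 passed the adjusted test or an unadjusted p under 0.05. The list holds elongation factors, some initiation factors (Eif3e, Eif3f, Eif3h, Eif3k, Eif3l and Eif4b) and other genes. Their median difference, cKO minus WT, was -0.01, 6 were higher and 7 lower in both sets (background 35.8% and 27.9%), and 6 were within 0.1 in both. Eef1a1, which brings aminoacyl-tRNA to the ribosome, read 14.36 and 14.35 in cKO, against 14.37 and 14.42 in WT. Eef2, which drives translocation, read 13.46 and 13.55 in cKO, against 13.30 and 12.83 in WT, a difference of 0.44 ± 0.21 (SE, n = 2 each, limma adjusted p = 0.41).

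Mitochondrial ribosomal protein genes were more often lower than higher in cKO. Of 74 tested, 37 were lower (background 27.9%) and 6 higher (background 35.8%) in cKO in both sets, with medians of -0.19 in set 1 and -0.07 in set 2, and 5 were within 0.1 in both. None passed the adjusted test, and 3 of 74 passed an unadjusted p under 0.05, all lower, against 14.2% of all genes. Ribosome assembly factors of the nucleolus were also more often lower, with 18 of 28 lower and 2 higher in both sets (background 27.9% and 35.8%) and medians of -0.25 in set 1 and -0.07 in set 2. The control RNA Dap, given as 3′ minus 5′ signal, read 2.95 and 1.74 in cKO, against 1.82 and 1.76 in WT, so that cKO set 1 stood apart in the set with the larger medians. Its part in these lists was not tested. Nop56, a core protein of the small nucleolar particles that methylate ribosomal RNA, read 10.01 and 9.90 in cKO, against 10.53 and 10.56 in WT, a difference of -0.59 ± 0.16 (SE, n = 2 each, limma adjusted p = 0.236). Initiation factors outside the TOP list had 9 of 23 lower and 1 higher in both sets (background 27.9% and 35.8%), and a median of -0.06. This count depends on how the lists were split. Of the initiation factors in the TOP list, Eif3f, Eif3h, Eif3l and Eif4b were higher in cKO in both sets. The others there, Eif3e and Eif3k, went in opposite directions. No list was tested against another.

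**Figure D4:**
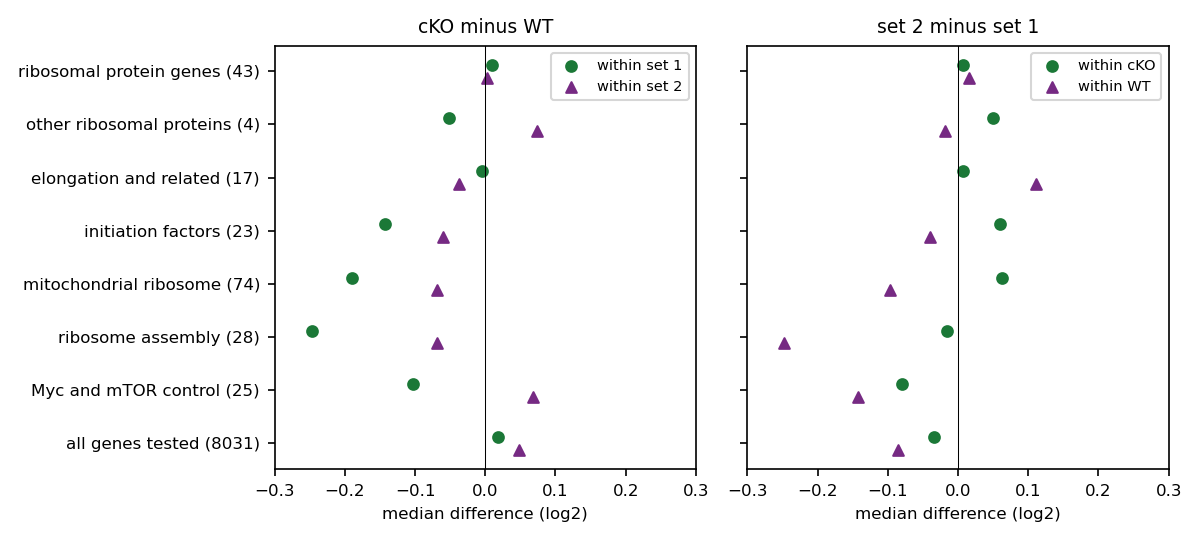
Median difference in log2 intensity (horizontal axes) of each gene list, cKO minus WT within each set on the left and set 2 minus set 1 within each genotype on the right, with the number of genes tested in brackets. The list labelled elongation and related is that of other TOP mRNAs, which also holds some initiation factors. The cytosolic ribosomal protein genes lie within 0.02 of 0 in all 4 pairs, and the mitochondrial ribosome and assembly lists lie below 0 in both sets on the left.

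Genes that control ribosomal protein synthesis were measured in 25 cases, and 0 passed the adjusted test, while 6 of 25 passed an unadjusted p under 0.05, against 14.2% of all genes. Myc, which drives ribosome production, read 10.70 and 10.62 in cKO, against 9.90 and 9.52 in WT, a difference of 0.95 ± 0.19 (SE, n = 2 each, limma adjusted p = 0.172). Its groups did not overlap. Mycn went the other way, at 7.93 and 6.74 in cKO, against 8.57 and 8.58 in WT (limma adjusted p = 0.275). Sesn1, which restrains mTOR complex 1, read 10.82 and 10.98 in cKO, against 9.89 and 10.08 in WT, a difference of 0.92 ± 0.17 (SE, n = 2 each, limma adjusted p = 0.162). Mtor differed by 0.03 and Larp1 by less than 0.01. The other genes at an unadjusted p under 0.05 were Mxd4 and Mxi1, antagonists of Myc, higher in cKO by 1.03 and 0.58, and Tbp, the TATA-binding protein, lower by 0.47.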

How the data were processed

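Biotin-labelled cRNA from 2 µg of total RNA was, per the labels' protocols, put on Affymetrix arrays. Deposited values are intensity on a linear scale, made by the authors with RMA per the submitters' processing notes, and log2 was computed from the deposited intensity. RMA gives no detection call and equalises overall signal between arrays. Of 22690 probe sets, 20380 had 1 symbol, and for each gene the one with the highest mean was used. Genes below percentile 40 (log2 5.398, linear 42.2), Xist and Y-linked genes were left out. Related genes and pseudogene copies can share probes, so every member is uncertain in that respect.

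Both comparisons were fitted on all 8031 genes with limma 3.58.1 (lmFit, eBayes) in R 4.3.3, with Benjamini-Hochberg adjustment at 0.05, and the fit was tested on simulated data. With 2 residual degrees of freedom the number of arrays limits the precision, and an exact permutation test could not go below p = 0.333. The set number was read as pairing the arrays from its shared state label; deviations of same-numbered arrays correlated with r = 0.192 over genes. Named members were up to 10 per comparison and direction with the largest smaller within-pair difference, paralogues, and common reference genes; some are given by count only. The members, lists, tests and alternatives were chosen with earlier results of these data known. Of 10 endothelial markers 5 were tested, and 4 passed the adjusted test between genotypes. Of 9 immune markers 2 were tested, of 8 fibroblast markers 4 and of 7 melanocyte markers 4, and 0 of these passed it. Among the fibroblast markers Thy1 was higher in cKO by 1.36 in set 1 and 1.55 in set 2, and 3 were lower in both sets. Sequences are from RefSeq (GRCm38.p6), and the files name no build.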

Additional observations from a re-analysis of the deposited data

Results flagged for a closer look

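For 2 members the pairs of a comparison went in opposite directions, by more than 0.1 each, and the difference between the pairs was not tested. Rpl27a, of the large subunit, read 9.13 and 8.48 in cKO, against 8.54 and 8.66 in WT, so that cKO minus WT was 0.59 in set 1 and -0.18 in set 2. Set 2 minus set 1 of Rpl27a was -0.65 in cKO and 0.12 in WT, and cKO set 1 was the array that stood apart. For Rpl12, set 2 minus set 1 was -0.20 in cKO and 0.57 in WT.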

How the results depend on the processing

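No member was called in either comparison under any of the alternatives, which covered the filter on dim genes, the choice of probe set, scaling, variance fitting, the threshold, the blocks and leaving out each array. Of 583 values of single genes under an alternative, 558 kept their direction, 23 reversed and 2, both of Rpl41 after a second quantile normalisation, were exactly 0. The number of members within 0.1 in both pairs ranged from 27 to 33 between genotypes and from 21 to 30 between sets. The count of all genes called between genotypes was 7, and it was 0 with the filter at percentile 60, 28 with a variance trend and robust fitting, 39 at a threshold of 0.10, 83 with the set as a replicate block and 2 to 16 without 1 array (2 without WT set 2, 16 without cKO set 2). Between sets it was 0, and 1 with genotype as a block. The block changed no call of a member. The median over members between genotypes (0.009) was 0.0033 with the mean of probe sets, 0.0034 after a second quantile normalisation and -0.0061 to 0.0201 without 1 array. Between sets (0.0122) it was 0.0201 with the mean of probe sets, -0.0043 with median centring, -0.0019 with probe sets of several symbols, and 0.0152 to 0.0255 without 1 array. The last probe set choices, the lowest probe set and those of several symbols, were added after seeing the data.

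Between genotypes, direction reversed with the mean of probe sets for Rps10 (-0.025) and Rpl41 (-0.44), with the lowest probe set above the limit for Rps28 (0.0074) and Rpl41 (-1.11), and on leaving out an array for Rps25 (-0.20 to 0.38), Rps24 (-0.067 to 0.00051), Rpl27a (-0.12 to 0.53) and Rps19 (-0.0011 to 0.076). Between sets it reversed with the mean of probe sets for Rps28 (0.0075), Rpl27 (-0.030) and Rpl41 (0.28), with the lowest probe set for Rps28 (0.0134), Rpl27 (-0.078) and Rpl41 (0.59), and on leaving out an array for Rps28 (-0.043 to 0.021), Rpl41 (-0.018 to 0.0074), Rpl27a (-0.56 to 0.029), Rps6 (-0.079 to 0.28), Rps4l (-0.94 to 0.16) and Rpl12 (-0.25 to 0.62). The cause was not tested. With 1 array of a group left, its spread was assumed to be that of the others.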
